A study of Mus musculus with 9 samples.

Results

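The genes described are 9 negative regulators of MAP kinase signalling in T cells. They are the 6 dual-specificity phosphatase genes Dusp1, Dusp2, Dusp4, Dusp5, Dusp6 and Dusp10 and the 3 Sprouty family genes Spry1, Spry2 and Spred1. They were picked by name, through the match of Ensembl mouse gene identifiers to symbols, and all 9 were found among the 49671 genes of the count table. All 9 also passed the filter on low counts that left 18374 genes for testing.

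RNA-seq of total RNA was made from CD3+ T cells of the spleens of female F1 mus x cast mice, with 3 libraries in each of 3 groups. They are named as biological replicates, but whether each is from a different animal is not stated, and the p-values speak of the spread among these libraries. The inhibitor group was stimulated for 48 hours with plate-bound anti-CD3 (1 μg/ml) and soluble anti-CD28 (10 μg/ml) in the presence of IMD-0354 at 2.5 μM, an inhibitor of the kinase IKK-beta, which acts upstream of NF-kB. The stimulated group had the same antibodies for 48 hours without IMD-0354. The unstimulated group went into TRIzol at once after column enrichment, so that it had neither culture nor stimulation. What all the groups share is the cross, C57BL/6 mothers with a heterozygous Xist deletion and M. m. castaneus fathers, which skews X inactivation. No vehicle is named for the group without IMD-0354, no cells were cultured without antibody as far as the labels say, and no age is given. Culture and stimulation therefore cannot be told apart in comparisons with the unstimulated group, and a vehicle effect cannot be told apart from the inhibitor.

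The antigen receptor of a T cell activates Ras through the exchange factors RasGRP1 and SOS, and Ras passes the signal through Raf and MEK to ERK, while the JNK and p38 branches run in parallel. Dual-specificity phosphatases remove the phosphates from the threonine and the tyrosine of the activation loop of these kinases. Several of their genes are themselves transcribed in answer to MAP kinase activity, which makes them feedback inhibitors. Sprouty and Spred proteins act further up, between the receptor, Ras and Raf, and Spred1 brings the Ras-inactivating protein neurofibromin to the membrane.

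Total counts ran from 34009988 to 56221174 a library. T cell markers were high in every group: the 14 T cell markers summed to 2815 to 2908 CPM (a gene's counts scaled by library total and TMM factor) in inhibitor, 2998 to 3127 in stimulated and 2534 to 3971 in unstimulated libraries. The unstimulated libraries also held RNA of other cells. Their 17 myeloid and dendritic cell markers summed to 1375 to 3561 CPM, against 48.2 to 80.3 in inhibitor and 34.9 to 36.5 in stimulated libraries, where Siglech had 0 counts. The 12 B cell markers summed to 160.1 to 165, 84.0 to 93.4 and 1013 to 2936 CPM in inhibitor, stimulated and unstimulated libraries, the 9 NK cell markers to 36.2 to 44.2, 122 to 231 and 554 to 609.7 CPM, and the 10 erythroid and platelet markers to 4.86 to 12.8, 4.41 to 7.14 and 42.3 to 616 CPM. In unstimulated library 2 the myeloid (3561 CPM) and B cell (2936 CPM) sums both exceeded the T cell sum (2534 CPM). Sums over different lists of genes do not give shares of cells. More genes had any count in inhibitor library 1 than elsewhere (30106, the remaining 8 libraries ranging between 20547 and 23223). In bulk RNA, fewer cells of a type and less of an RNA per cell cannot be told apart.

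Positions are those of GENCODE M21 on GRCm38 (mm10). Dusp1 encodes a nuclear phosphatase of p38, JNK and ERK and is a classic immediate early gene. Dusp1 (ENSMUSG00000024190, chr17:26505590-26562128, minus strand) had 26.3, 27.0 and 26.7 CPM in the inhibitor libraries, 13.3, 13.9 and 10.9 CPM in the stimulated libraries and 684.3, 566.5 and 310.0 CPM in the unstimulated libraries. All the unstimulated libraries lay far above the rest, and they also differed most among themselves, with library 1 above 2 times the level of library 3. Dusp2 (ENSMUSG00000027368, chr2:127336159-127338376, plus strand) encodes a nuclear phosphatase found mainly in blood cells. It had 132.8, 216.0 and 211.3 CPM in the inhibitor libraries, 88.3, 104.9 and 115.2 CPM in the stimulated libraries and 194.7, 149.5 and 221.3 CPM in the unstimulated libraries. Its inhibitor and unstimulated libraries overlapped, the stimulated libraries lay below both, and inhibitor library 1 was the lowest of its group.

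Dusp4 (ENSMUSG00000031530, chr8:34807297-34819894, plus strand) encodes a nuclear phosphatase of ERK and JNK. It had 132.2, 150.3 and 162.6 CPM in the inhibitor libraries, 163.5, 185.3 and 171.8 CPM in the stimulated libraries and 7.19, 7.52 and 5.76 CPM in the unstimulated libraries. The unstimulated libraries were near the bottom of the scale and both cultured groups far above them. Dusp5 (ENSMUSG00000034765, chr19:53529109-53542431, plus strand) encodes a nuclear phosphatase that acts on ERK. It had 182.7, 195.2 and 192.4 CPM in the inhibitor libraries, 196.2, 219.2 and 261.9 CPM in the stimulated libraries and 78.4, 65.7 and 93.6 CPM in the unstimulated libraries. Each cultured library exceeded every unstimulated one, and the inhibitor libraries all lay just under the lowest stimulated library.

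Dusp6 (ENSMUSG00000019960, chr10:99263231-99267489, plus strand) encodes the cytoplasmic phosphatase specific for ERK. It had 43.3, 44.2 and 41.4 CPM in the inhibitor libraries, 20.3, 19.4 and 17.2 CPM in the stimulated libraries and 75.5, 81.1 and 59.6 CPM in the unstimulated libraries. The groups did not overlap, and the inhibitor libraries sat between the stimulated and the unstimulated ones. Dusp10 (ENSMUSG00000039384, chr1:184013302-184075636, plus strand) encodes a phosphatase that acts on JNK and p38 rather than ERK. It had 36.4, 33.5 and 29.9 CPM in the inhibitor libraries, 21.7, 22.5 and 17.5 CPM in the stimulated libraries and 95.6, 74.2 and 110.0 CPM in the unstimulated libraries. It showed the same order of the groups as Dusp6.

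Among the Sprouty family genes, Spry1 (ENSMUSG00000037211, chr3:37639947-37644598, plus strand) had 66.4, 63.4 and 58.3 CPM in the inhibitor libraries, 22.2, 23.7 and 21.1 CPM in the stimulated libraries and 6.72, 7.29 and 7.52 CPM in the unstimulated libraries. Its order was the inhibitor group highest and the unstimulated group lowest, with no overlap. Spry2 (ENSMUSG00000022114, chr14:105891947-105896819, minus strand) had 2.39, 2.72 and 3.73 CPM in the inhibitor libraries, 9.06, 8.30 and 8.87 CPM in the stimulated libraries and 20.7, 20.6 and 25.4 CPM in the unstimulated libraries, which is the reverse order, again with no overlap. Spred1 (ENSMUSG00000027351, chr2:117121374-117182279, plus strand), which carries an EVH1 domain that the Sprouty proteins lack, had 51.2, 45.1 and 51.5 CPM in the inhibitor libraries, 51.0, 41.5 and 40.0 CPM in the stimulated libraries and 22.0, 29.6 and 21.5 CPM in the unstimulated libraries. Here the inhibitor and stimulated libraries overlapped, and both groups lay above the unstimulated libraries.

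**Figure D1:**
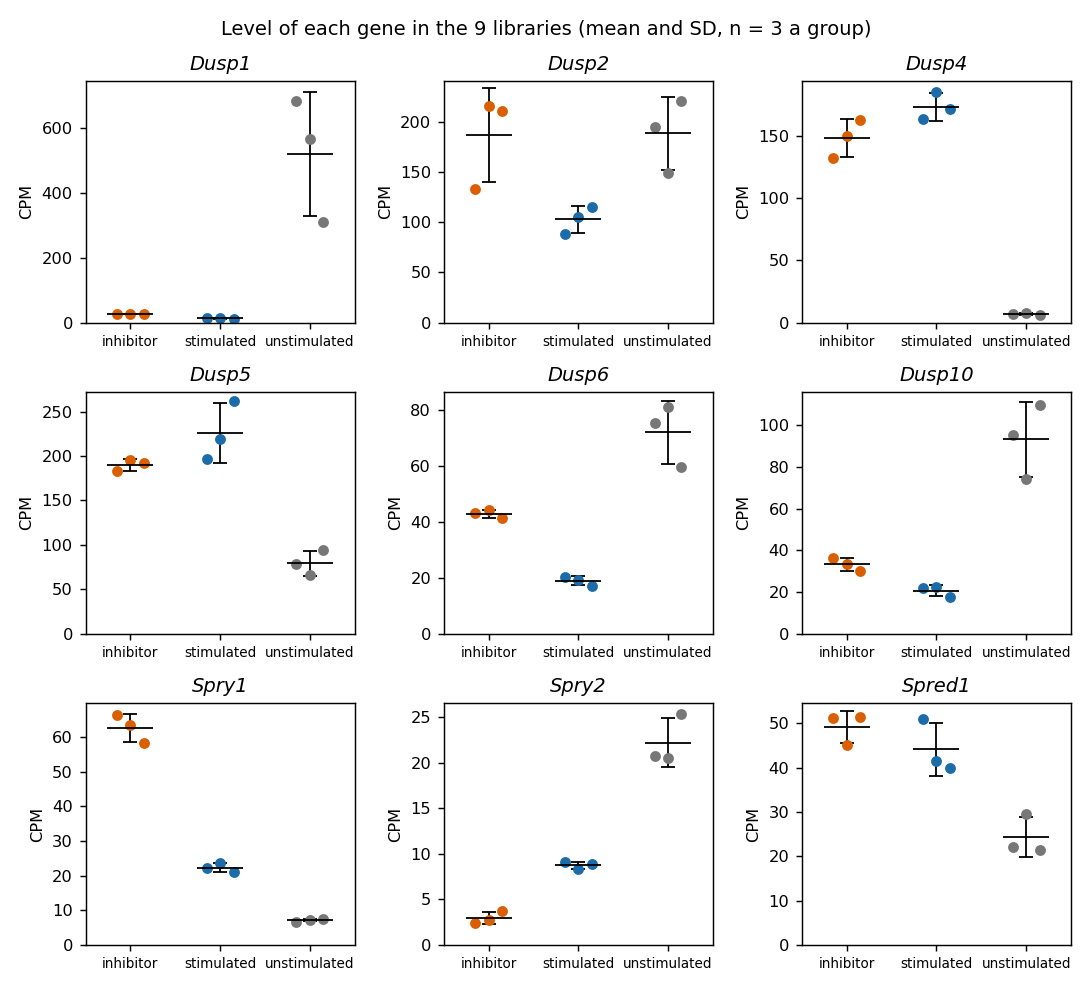
Level of each of the 9 genes in CPM (vertical axes, from 0, a scale of its own for each gene) in inhibitor, stimulated and unstimulated libraries. Points are libraries 1 to 3 from left to right, horizontal bars the mean and error bars the SD (n = 3). Dusp1 stood at 520.3 ± 191 CPM in unstimulated libraries and Dusp4 at 174 ± 11.0 CPM in stimulated libraries, each near the bottom of its scale in the opposite group.

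Promoter sequences are shown for Dusp1, the phosphatase gene that fell most with stimulation, for Dusp5, which rose, and for Dusp2, which has an E-box as Dusp1 has. They come from RefSeq on GRCm38.p6, from windows of 250 bases before to 50 after the annotated start. Such a window was at hand for 8 of the 9 genes. Dusp4, which rose most with stimulation among the 9, had none, so that its promoter was not searched. Capitals mark a match to the CRE (cyclic AMP response element, TGACGTCA) and to the E-box (CACGTG) in Dusp1, to the E-box in Dusp2 and to 2 adjoining serum response elements in Dusp5. The Dusp1 stretch lies at chr17:26508563-26508645 on the minus strand, inside the longer span that GENCODE gives the gene, the Dusp2 stretch at chr2:127336020-127336085 on the plus strand and the Dusp5 stretch at chr19:53529033-53529112 on the plus strand.
Dusp1: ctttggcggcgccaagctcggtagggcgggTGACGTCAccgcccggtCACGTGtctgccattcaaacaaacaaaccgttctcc
Dusp2: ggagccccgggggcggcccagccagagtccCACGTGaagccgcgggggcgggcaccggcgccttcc
Dusp5: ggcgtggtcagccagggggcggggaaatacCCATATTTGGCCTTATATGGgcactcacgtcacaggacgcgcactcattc

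The CRE of Dusp1 begins 143 bases before the start, and the E-boxes of Dusp1 and Dusp2 begin 126 and 109 bases before theirs. In Dusp5 the serum response elements, CCATATTTGG and CCTTATATGG, begin 82 and 72 bases before the start and touch without overlap. Both strands were searched. Of all 32851 windows, 1.79% held a CRE, 7.15% an E-box and 1.63% a serum response element. The CRE core TGACG, which the full CRE contains, was in 3 of the 8 windows (Dusp1, Dusp2 and Dusp5) and in 20.8% of all windows. The ETS motif CCGGAA was in the Spry2 window, after the start, and in 14.9% of all windows. Neither AP-1 (TGANTCA, 7.81% of all windows), nor EGR (GCGTGGG, 5.04%), nor the NF-kB consensus (4.51%) matched in the 8 windows, which says only that these letters are not in these 300 bases. A match is a description of the sequence and not a binding site shown here.

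Between the stimulated and the unstimulated group all 9 genes differed, in both directions. Here and elsewhere, a change with or by stimulation means this comparison, in which culture is not separated from stimulation. Dusp4 rose 25.5-fold, Spry1 3.11-fold, Dusp5 2.85-fold and Spred1 1.81-fold. Dusp1 was 41.0-fold lower, Dusp10 4.53-fold, Dusp6 3.80-fold, Spry2 2.54-fold and Dusp2 1.83-fold lower. A gene is called, and said to have risen or fallen, where the edgeR quasi-likelihood test gave a Benjamini-Hochberg adjusted p under 0.05 over all 18374 genes. By that rule 4 of the 9 rose, beside 32.0% of all genes tested, and 5 of the 9 fell, beside 34.0% of all genes. The median log2 fold change was -0.87 over the 9 genes and -0.05 over all genes.

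On the log2 scale, with an approximate SE (the change divided by the square root of the F statistic), Dusp1 fell by 5.36 ± 0.28 (edgeR adjusted p = 1.7e-07) and Dusp4 rose by 4.67 ± 0.13 (adjusted p = 5.2e-09). Dusp5 rose by 1.51 ± 0.14 (edgeR adjusted p = 6.7e-06), and Dusp6 fell by 1.93 ± 0.13 (adjusted p = 6.8e-07). Dusp10 changed by -2.18 ± 0.16 and Dusp2 by -0.87 ± 0.20 (edgeR adjusted p = 1.5e-06 and 0.0031). In the Sprouty family, Spry1 rose by 1.64 ± 0.10 and Spred1 by 0.86 ± 0.15, while Spry2 fell by 1.35 ± 0.17 (edgeR adjusted p = 5.0e-07, 5.1e-04 and 7.2e-05).

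Fos, Fosb and Jun, immediate early genes that encode subunits of the AP-1 factor, fell with stimulation as Dusp1 did (log2 fold changes -6.14 ± 0.31, -8.37 ± 0.54 and -4.43 ± 0.23). Other AP-1 genes did not. Fosl1 rose by 4.37 ± 0.22 and Fosl2 by 1.36 ± 0.13, and Junb was not called (-0.06 ± 0.18, edgeR adjusted p = 0.78). Fos had 10.3, 10.4 and 10.5 CPM in stimulated libraries and 1011.9, 768.4 and 419.8 CPM in unstimulated libraries. Jun had 23.0, 23.7 and 24.1 CPM in stimulated and 705.1, 473.0 and 349.4 CPM in unstimulated libraries. Among the unstimulated libraries, Dusp1, Fos, Fosb and Jun all had their highest level in library 1 and their lowest in library 3. The myeloid marker Lyz2 had 531.9, 958.0 and 334.4 CPM in those libraries, with the highest in library 2 and the lowest also in library 3. The sum of the 17 myeloid markers had the order of Lyz2 (2317, 3561 and 1375 CPM). Single markers of other cells had the order of Dusp1, as the myeloid Csf3r (324.7, 283.1 and 124.3 CPM) and the erythroid Hbb-bs (344.5, 202.0 and 6.69 CPM). The part of column handling or of myeloid and B cells in the unstimulated level of Dusp1, or of any of the other genes lower after stimulation, was not tested. All 17 myeloid, 11 of 12 B cell and 8 of 9 NK cell markers fell with stimulation too.

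With the inhibitor against stimulation alone, 4 of the 5 genes that stimulation had lowered were higher and none of the 4 that it had raised fell. Spry1 rose 2.81-fold, Dusp6 2.27-fold, Dusp1 2.10-fold, Dusp2 1.82-fold and Dusp10 1.61-fold. Spry2 was the gene that fell, by 2.96-fold. Of the 9 genes 5 rose, beside 21.7% of all genes tested, 1 fell, beside 22.8% of all genes, and 3 were not called. The median log2 fold change was 0.69 over the 9 genes and 0.03 over all genes. This comparison and the first share the stimulated libraries, so that opposite signs in them are in part built in. The matching shares among all genes that stimulation had lowered or raised were not worked out. Whether 4 of the 5 and none of the 4 are unusual is therefore not known. Of the other-cell markers, 6 of 17 myeloid and 6 of 12 B cell genes rose in it and 7 of 9 NK cell genes fell; their part in the result was not tested.

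Spry1 rose by 1.49 ± 0.10 on the log2 scale (edgeR adjusted p = 3.7e-06) and Spry2 changed by -1.56 ± 0.18 (adjusted p = 9.6e-05), so that the Sprouty genes parted further in the direction they had taken with stimulation. Dusp6 rose by 1.18 ± 0.12 (edgeR adjusted p = 5.3e-05), the most among the phosphatase genes. Dusp1, Dusp2 and Dusp10 rose by 1.07 ± 0.24, 0.86 ± 0.20 and 0.69 ± 0.16 (edgeR adjusted p = 0.0047, 0.0059 and 0.005). The phosphatase genes that stimulation had raised, Dusp4 and Dusp5, were not called, at -0.23 ± 0.11 and -0.25 ± 0.14 (edgeR adjusted p = 0.13 and 0.17), although no inhibitor library reached the lowest stimulated one for either. Spred1 was at 0.16 ± 0.15 (edgeR adjusted p = 0.41). A p above the threshold does not show that these levels were equal.

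Against the unstimulated state, the inhibitor-treated cells had high Dusp4 and low Dusp1. Dusp4 was 21.8-fold higher, Spry1 8.73-fold, Dusp5 2.40-fold and Spred1 2.02-fold higher. Dusp1 was 19.5-fold lower, Spry2 7.52-fold, Dusp10 2.81-fold and Dusp6 1.68-fold lower. Thus 4 of the 9 rose, beside 26.3% of all genes tested, and 4 fell, beside 26.1% of all genes. The median log2 fold change was -0.01 over the 9 genes and -0.001 over all genes. Dusp2 was not called, at 187 ± 46.7 CPM in inhibitor and 189 ± 36.3 CPM in unstimulated libraries (SD, n = 3; log2 fold change -0.01 ± 0.20, edgeR adjusted p = 0.96). The sign of that small difference turned when unstimulated library 1 or 3 or inhibitor library 1 was left out, with values of 0.01, 0.12 and 0.18.

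**Figure D2:**
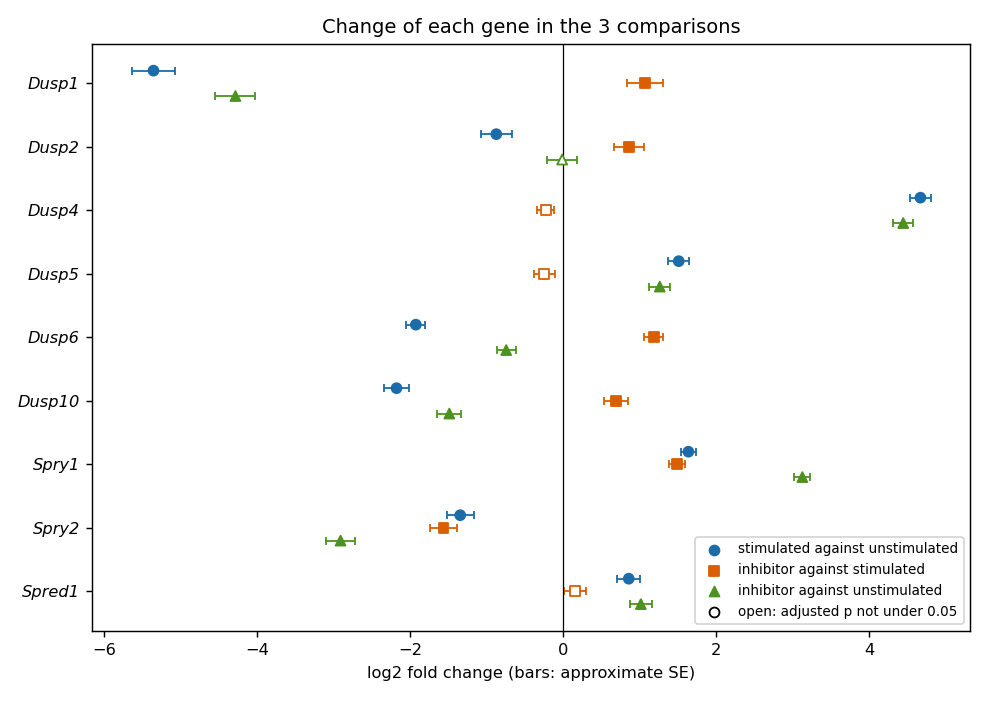
Log2 fold change (horizontal axis) of each of the 9 genes in the comparisons of stimulated with unstimulated, inhibitor with stimulated and inhibitor with unstimulated libraries (n = 3 each), with approximate SE as bars and open symbols where the edgeR adjusted p was not under 0.05. Dusp1 at -5.36 and Dusp4 at 4.67 are the extremes of stimulation, and Spry1 at 1.49 and Spry2 at -1.56 those of the inhibitor.

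Levels of different genes were set side by side per length, as RPKM (CPM per kilobase of merged exons). In inhibitor libraries Dusp2 (93.2 ± 23.3 RPKM, mean ± SD, n = 3) and Dusp5 (76.9 ± 2.65 RPKM) overlapped at the top, before Dusp4 (54.2 ± 5.58 RPKM) and Spry1 (21.6 ± 1.41 RPKM). Dusp6 (13.7 ± 0.446), Dusp10 (10.9 ± 1.07), Dusp1 (8.06 ± 0.110) and Spred1 (7.27 ± 0.531 RPKM) followed, and Spry2 was the lowest, at 1.41 ± 0.336 RPKM. Apart from the first pair, no neighbours in this order overlapped.

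In stimulated libraries the order began with Dusp5 (91.3 ± 13.5 RPKM), Dusp4 (63.3 ± 4.02 RPKM) and Dusp2 (51.3 ± 6.78 RPKM), with no overlap between neighbours. The other 6 genes lay between 3.84 RPKM for Dusp1, the lowest of the 9, and 7.68 RPKM for Spry1. Of the 5 steps between neighbours among those 6, only that from Dusp6 to Spry2 was free of overlap. In unstimulated libraries Dusp1 (157 ± 57.8 RPKM) and Dusp2 (94.1 ± 18.1 RPKM) came first, with overlapping replicates. Dusp5 (32.0 ± 5.66), Dusp10 (30.7 ± 5.92) and Dusp6 (23.0 ± 3.55 RPKM) followed, with overlap between neighbours, then Spry2 (10.7 ± 1.31) and Spred1 (3.60 ± 0.667 RPKM). Dusp4 (2.49 ± 0.342 RPKM) and Spry1 (2.47 ± 0.142 RPKM) came last and overlapped.

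The level summed over the 9 genes was 254 to 305 RPKM in inhibitor, 220.2 to 258 RPKM in stimulated and 317 to 409 RPKM in unstimulated libraries. Every unstimulated library lay above all the cultured ones, and the inhibitor and stimulated libraries overlapped. The order of these sums is not that of each gene. Dusp1 alone had a mean of 157 RPKM in unstimulated, 3.84 RPKM in stimulated and 8.06 RPKM in inhibitor libraries. The makeup of the sum also differed between the groups. Dusp1 made up 2.82% ± 0.266 of it in inhibitor, 1.61% ± 0.289 in stimulated and 43.3% ± 12.0 in unstimulated libraries (SD, n = 3). For Dusp4 the shares were 18.9% ± 0.795, 26.3% ± 1.80 and 0.702% ± 0.0875, in the same order of groups, and for Dusp5 26.9% ± 1.93, 37.8% ± 2.84 and 9.15% ± 2.41. Dusp2 held a large share in every group, 32.1% ± 5.18 in inhibitor, 21.2% ± 1.14 in stimulated and 26.8% ± 7.02 in unstimulated libraries.

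**Figure D3:**
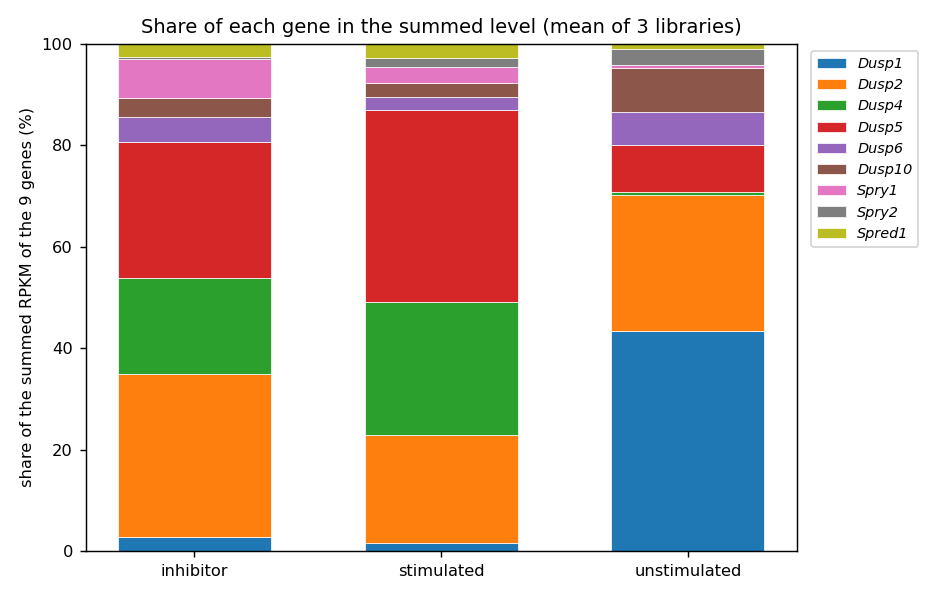
Share of each gene in the RPKM summed over the 9 genes (vertical axis, percent, mean of 3 libraries) in inhibitor, stimulated and unstimulated libraries. Dusp1 fills 43.3% of the unstimulated bar, and Dusp4 with Dusp5 most of the stimulated one (26.3% and 37.8%).

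Ratios of RPKM within a library do not depend on the scaling between libraries. The ratio of Dusp4 to Dusp1 was 6.08, 6.72 and 7.35 in inhibitor libraries, 14.9, 16.1 and 19.0 in stimulated libraries and 0.0127, 0.0160 and 0.0224 in unstimulated libraries. Dusp1 RNA was thus in large excess in the unstimulated group and Dusp4 RNA in excess in both cultured groups. The ratio of nuclear Dusp5 to cytoplasmic Dusp6 was 5.34, 5.60 and 5.88 in inhibitor, 12.2, 14.3 and 19.3 in stimulated and 1.31, 1.03 and 1.99 in unstimulated libraries. It was lower with the inhibitor than with stimulation alone in every library, and above the unstimulated ratios in both. The ratio of Spry1 to Spry2 was 20.0, 16.7 and 11.2 in inhibitor, 1.76, 2.05 and 1.71 in stimulated and 0.232, 0.254 and 0.213 in unstimulated libraries. Spry2 RNA was thus the more abundant per length in the unstimulated group and Spry1 RNA in both cultured groups. The ratios of the groups did not overlap for any of these 3 pairs. Each pair sets a gene that stimulation raised over one that it lowered. The separation from the unstimulated ratios therefore follows from the changes given above and adds no evidence to them. For Dusp10 to Dusp2 the ratio was 0.180, 0.102 and 0.0931 in inhibitor, 0.162, 0.142 and 0.100 in stimulated and 0.323, 0.327 and 0.327 in unstimulated libraries, so that inhibitor and stimulated libraries overlapped and both lay below the unstimulated ones. With 3 libraries a group an exact two-sided permutation test of a ratio cannot go below 0.10, and none was run.

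**Figure D4:**
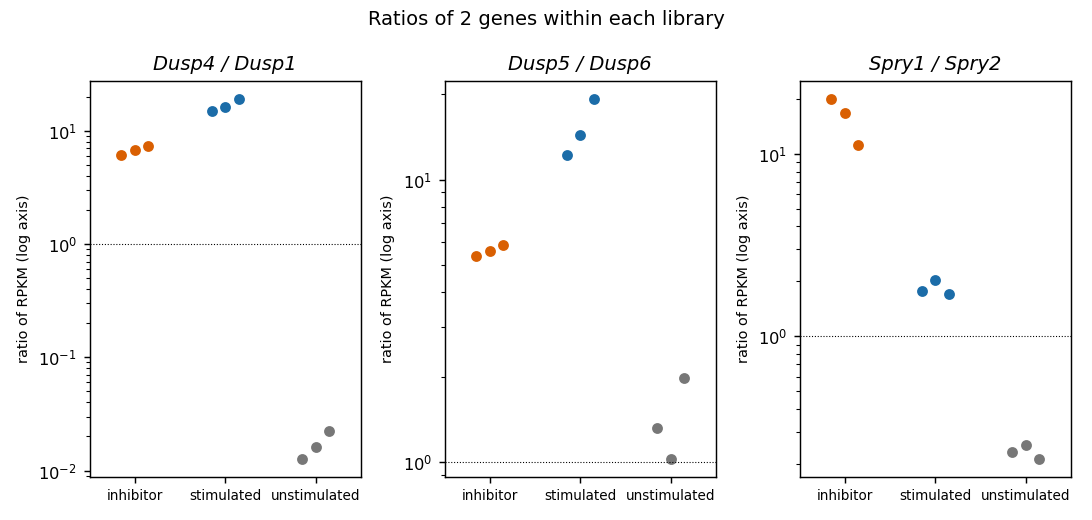
Ratio of RPKM of Dusp4 to Dusp1, Dusp5 to Dusp6 and Spry1 to Spry2 within each library (vertical log axes; points are libraries, dotted line at a ratio of 1) for inhibitor, stimulated and unstimulated libraries. Spry1 to Spry2 runs from 11.2 to 20.0 in inhibitor libraries and lies under 1 in the unstimulated ones.

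The nearest relatives behaved differently from gene to gene. Of the 7 other MAP kinase phosphatase, Sprouty and Spred genes tested, 5 rose and 1 fell with stimulation, 1 rose and 2 fell with the inhibitor against stimulation, and 4 rose and 1 fell with the inhibitor against the unstimulated state (medians 1.08, -0.27 and 1.03 on the log2 scale). Dusp16, which acts on JNK and p38, had 61.5 ± 3.04 CPM in inhibitor, 55.4 ± 4.61 CPM in stimulated and 26.2 ± 7.53 CPM in unstimulated libraries (SD, n = 3), and it rose with stimulation by 1.08 ± 0.18 (edgeR adjusted p = 4.0e-04), whereas Dusp10, of the same specificity, fell. Dusp7, a cytoplasmic ERK phosphatase like Dusp6, fell with stimulation by 0.44 ± 0.15 (edgeR adjusted p = 0.027) and was not called with the inhibitor against stimulation (-0.41 ± 0.15, adjusted p = 0.054). The call of Dusp7 with stimulation was lost without unstimulated library 1 or 3 or stimulated library 1 or 2 (edgeR adjusted p from 0.074 to 0.12). Without unstimulated library 2 or 3, Dusp7 and Spred2 were also called lower with the inhibitor against stimulation, which made 4 of the 7.

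Dusp8, another JNK and p38 phosphatase, had 8.38, 9.56 and 9.58 CPM in inhibitor, 0.423, 0.173 and 0.190 CPM in stimulated and 0.350, 1.95 and 0.203 CPM in unstimulated libraries. It rose by 5.12 ± 0.76 with the inhibitor against stimulation (edgeR adjusted p = 4.7e-04), the largest change with the inhibitor among the 16 family genes, and was singled out after its values were seen, as was Dusp9, whose level was under 5 CPM in every library. Dusp9 and Spred3 went the other way: Dusp9 had 0.478 ± 0.155 CPM in inhibitor, 2.52 ± 0.150 in stimulated and 0.419 ± 0.177 in unstimulated libraries, and Spred3 2.84 ± 0.479, 7.92 ± 1.15 and 1.39 ± 0.191 CPM. Both rose with stimulation (2.58 ± 0.39 and 2.51 ± 0.23) and fell with the inhibitor against it (-2.40 ± 0.39 and -1.48 ± 0.21; edgeR adjusted p = 7.6e-04 and 4.0e-04). Spry4 was under 5 CPM in all 9 libraries and rose with stimulation by 1.27 ± 0.32 (edgeR adjusted p = 0.005). Spred2 rose by 0.49 ± 0.10 (edgeR adjusted p = 0.002), a call that was lost with upper-quartile scaling (0.27, adjusted p = 0.077). Of the 9 atypical dual-specificity phosphatases, 3 rose and 3 fell with stimulation, 1 rose and 3 fell with the inhibitor against stimulation, and 3 rose and 2 fell against the unstimulated state (medians -0.28, 0.17 and 0.08). Of these, 1 fell with stimulation without unstimulated library 1 or 3 or stimulated library 3, and 0 rose with the inhibitor against stimulation without stimulated library 1 or inhibitor library 2.

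Upstream of the phosphatases, the list of 24 Ras activators and inhibitors was split, with 9 higher and 9 lower after stimulation (median -0.12), 6 and 6 with the inhibitor against stimulation (median 0.05) and 7 and 9 against the unstimulated state (median -0.04). With upper-quartile scaling 4 of the 24 were higher after stimulation. The shares of all genes tested were 32.0% higher and 34.0% lower, 21.7% and 22.8%, and 26.3% and 26.1%, in the same order (medians -0.05, 0.03 and -0.001). Rasgrp2, an exchange factor for the related GTPase Rap1, fell with stimulation by 4.36 ± 0.20 and the GTPase-activating gene Rasa3 by 2.72 ± 0.09 (edgeR adjusted p = 9.3e-08 and 1.5e-08). Hras rose by 1.04 ± 0.14 and was lower with the inhibitor than with stimulation alone (-0.94 ± 0.13, edgeR adjusted p = 3.7e-04), as was the adaptor gene Dok2 (-1.18 ± 0.14).

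Of the 21 Raf, MAP kinase kinase and MAP kinase genes, 6 rose and 6 fell after stimulation, 4 rose and 6 fell with the inhibitor against stimulation, and 6 rose and 4 fell against the unstimulated state (medians -0.04, 0.08 and 0.06). The number that rose with the inhibitor against stimulation was 2 without stimulated library 2 or 3 or inhibitor library 1, and the number that rose against the unstimulated state was 3 without inhibitor library 2 and with upper-quartile scaling. Map2k1, which encodes the ERK kinase MEK1, had 53.1, 61.0 and 66.9 CPM in inhibitor, 121.5, 127.2 and 120.9 CPM in stimulated and 46.9, 48.0 and 54.0 CPM in unstimulated libraries. It was higher with stimulation (1.31 ± 0.10, edgeR adjusted p = 1.8e-06) and lower with the inhibitor (-1.03 ± 0.10, adjusted p = 3.0e-05), unlike Dusp4 and Dusp5, which were not called there. The scaffold gene Ksr1 rose with stimulation by 1.63 ± 0.07 and the p38 gene Mapk14 fell by 1.17 ± 0.08, while the JNK gene Mapk8 was higher with the inhibitor than with stimulation alone (1.09 ± 0.12, edgeR adjusted p = 6.9e-05) and Map2k6, a p38 kinase, lower (-1.67 ± 0.15).

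Of 22 immediate early and ERK-responsive genes, 9 rose and 10 fell after stimulation, 8 and 7 with the inhibitor against stimulation and 9 and 12 against the unstimulated state (medians -0.04, 0.10 and -0.48). Ier3 had 11.5, 15.3 and 14.8 CPM in inhibitor, 102.0, 86.3 and 109.7 CPM in stimulated and 8.21, 7.19 and 7.48 CPM in unstimulated libraries, with the stimulated libraries far above the others. Egr3, a transcription factor gene induced by antigen receptor signals, rose with the inhibitor against stimulation by 2.13 ± 0.27 (edgeR adjusted p = 1.6e-04), while the AP-1 gene Fosl2 fell by 2.45 ± 0.13 (adjusted p = 1.2e-06). Fosb rose by 2.49 ± 0.46 in that comparison (edgeR adjusted p = 0.0016), a call that limma voom did not make (adjusted p = 0.11). Fos was at 10.8 ± 1.50 CPM in inhibitor and 10.4 ± 0.120 CPM in stimulated libraries (SD, n = 3) and was not called (0.06 ± 0.26, edgeR adjusted p = 0.87), while Jun, with 79.6, 86.7 and 84.8 CPM in inhibitor libraries, rose by 1.83 ± 0.21 against stimulation (adjusted p = 8.5e-05), as Dusp1 did. Of 9 other phosphatase genes tested, 3 rose and 3 fell with stimulation, 2 rose and 2 fell with the inhibitor against it and 3 rose and 1 fell against the unstimulated state (medians -0.07, 0.14 and 0.07). With upper-quartile scaling 5 fell with stimulation, 4 rose and 1 fell with the inhibitor against it and 3 fell against the unstimulated state, and without stimulated library 1 or inhibitor library 2 or 3 the number that rose with the inhibitor against stimulation was 1. Among them Ptpn2, a tyrosine phosphatase of cytokine and receptor signalling, rose with stimulation by 1.66 ± 0.09 and fell with the inhibitor against it by 1.04 ± 0.09 (edgeR adjusted p = 1.8e-05).

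For each of the 9 genes, the genes with the most similar profile were sought among 10437 others with a mean of at least 5 CPM, by the root-mean-square difference of log2 levels over the 9 libraries after each profile was centred on its mean. The closest were Ptpro (difference 0.29) and Alox5ap (difference 0.31) for Dusp1, Pld3 (difference 0.12) and H2-Q4 (difference 0.14) for Dusp2, and Lag3 (difference 0.21) and Slc1a4 (difference 0.23) for Dusp4. They were Mmab (difference 0.13) and Fasn (difference 0.13) for Dusp5, Snx30 (difference 0.09) and Rufy1 (difference 0.13) for Dusp6, and Patj (difference 0.10) and Atp10d (difference 0.12) for Dusp10. For the Sprouty family they were Gbp5 (difference 0.12) and Colq (difference 0.16) for Spry1, Cnp (difference 0.16) and Fam78a (difference 0.19) for Spry2, and Casp4 (difference 0.08) and Parp2 (difference 0.10) for Spred1. Ptpro, a receptor-type tyrosine phosphatase gene, had 0.674 ± 0.322 CPM in inhibitor, 0.0979 ± 0.0840 CPM in stimulated and 22.6 ± 7.89 CPM in unstimulated libraries (SD, n = 3). The 0.5 CPM added before the logarithm exceeds its stimulated level, so that its likeness to Dusp1 depends on that constant. The likeness of Alox5ap, at 0.855 CPM in stimulated libraries, depends on it in part. Both Ptpro and Alox5ap reached a mean of 5 CPM only through the unstimulated libraries. Colq did so only through the inhibitor libraries, where Spry1 was also highest. It had 10.7 ± 0.434 CPM in inhibitor, 4.33 ± 0.664 CPM in stimulated and 1.16 ± 0.156 CPM in unstimulated libraries. The filter thus had a part in these likenesses. Lag3, a coinhibitory receptor gene, stood at 186 ± 15.4 CPM in inhibitor, 227 ± 16.9 CPM in stimulated and 6.87 ± 1.19 CPM in unstimulated libraries (SD, n = 3). Fasn and Mmab, near Dusp5, belong to lipid synthesis and cobalamin metabolism, and Gbp5, near Spry1, is an interferon-inducible GTPase gene. Alox5ap, near Dusp1, belongs to leukotriene synthesis and is strongly expressed by myeloid cells; it had 1.76 ± 0.554 CPM in inhibitor, 0.855 ± 0.132 CPM in stimulated and 46.9 ± 15.3 CPM in unstimulated libraries.

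Exons of 3 of the 9 genes overlap other annotated genes. Those of Dusp1 share 11 bases with Ergic1, which had 26587 counts in all libraries together, and those of Dusp5 share 547 bases with an antisense gene that had 0 counts in all libraries. Those of Spry1 share 710 bases with Gm42922, an unverified gene model on the other strand with 155 counts in all 9 libraries together. Spry1 itself had from 269 to 2911 counts in each library. Among the relatives, Spred3 shares 202 exonic bases with Ggn, which had 346 counts in all libraries together, and Dusp8 shares 66 with Gm32786, which had 20. The strand setting of the counting is not given in the sources used here.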

How the data were processed

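The deposited table holds raw counts per gene for 9 libraries of column-enriched splenic T cells. The libraries were made with a stranded total RNA kit after ribosomal RNA removal, per the labels' protocols, and the authors mapped reads to mm10 with STAR 2.7.1a and counted them with featureCounts, per the submitters' processing notes. The release of the gene annotation, the strandedness option and the unit of counting (reads or fragments) are unknown here. Of the counts from 1 to 10 in a library, 70.6% to 78.5% were even numbers, and the reason was not tested. A fit with halved counts is among the alternatives named below. Of 49671 gene identifiers, 49326 matched GENCODE M21.

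Genes were kept by filterByExpr, libraries scaled by TMM, and all 9 libraries fitted together by edgeR's quasi-likelihood test (edgeR 4.0.16, R 4.3.3) with Benjamini-Hochberg adjustment over 18374 genes; 3 comparisons were made, each pair of which shares a group. The test was run on simulated counts in which far fewer genes changed than were called here. That run does not check the scaling between these groups. RPKM is CPM per kilobase of merged exons. Replicates within a group differed by more than counting noise (chi-square per degree of freedom from 30.0 to 112). Intervals of counting error were not needed beside replicate SDs. The 9 genes, the gene lists and the tests were chosen with earlier results of these data known. Genes named from the other lists were the up to 4 called genes a comparison with the largest change among those of a mean of at least 5 CPM; the text gives part of them, and 4 relatives (Spry4, Spred2, Dusp7, Dusp16) whatever their values. Dusp9, and Dusp8 in the comparison of inhibitor with stimulated libraries, were named outside this rule, after their values were seen. The values of Fos and Jun in that comparison also stand outside the rule. So do the changes of Spred3, Fosl1, Fosl2 and Junb between stimulated and unstimulated libraries, and the levels of the markers Csf3r and Hbb-bs. The likeness search added 0.5 CPM before the logarithm. The alternatives tried were DESeq2 1.42.0, limma voom (limma 3.58.1), upper-quartile scaling, other filters, a fit of the compared groups only, halved counts, a replicate block and leaving out each library.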

Additional observations from a re-analysis of the deposited data

How the results depend on the processing

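The numbers of the 9 genes called in each direction were the same under all 17 alternatives for each comparison. The labels do not say whether the replicate numbers pair the libraries, and the main fit did not pair them. Correlations of same-numbered deviations ran from -0.19 to 0.14 over all comparisons. Between inhibitor and stimulated libraries they were 0.14, 0.11 and 0.078, above those of differently numbered libraries (-0.11 to 0.026). Whether these libraries share a preparation is not known. With the replicate block the counts were 4 and 5, 5 and 1, and 4 and 4 (higher and lower, in the order stimulated against unstimulated, inhibitor against stimulated, inhibitor against unstimulated). Of 459 recomputed fold changes of the 9 genes, 456 kept sign and side of the threshold. The other 3 are of Dusp2 with the inhibitor against the unstimulated state, never called, which ran from -0.16 to 0.18 when single libraries were left out.

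Of 1157 recomputed values of other named genes, 23 lost a call, 17 gained one and 3 changed sign. The sign changes were of values not called: Spry4 with the inhibitor against stimulation ran from -0.082 to 0.23, and Dusp9 with the inhibitor against the unstimulated state from -0.10 to 0.51, without single libraries. Of 612 recomputed counts of the other lists, 45 moved by over 1.5 times. Upper-quartile scaling moved the median log2 fold change of all genes to -0.27, 0.16 and -0.09 in the 3 comparisons, and with it every fold change. Depth limits the precision of genes with few counts, such as Dusp9, which had 10 to 26 counts a library in the unstimulated group.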
